A study of Mus musculus with 12 samples.

Results

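Liver hepatocytes receive growth signals from the cells that line and surround the sinusoids, and 10 genes of this exchange were examined: the Wnt ligands Wnt2 and Wnt9b, the R-spondin Rspo3, the growth factor Hgf and its receptor Met, the BMP ligands Bmp2 and Bmp6, and the vascular factors Angpt2, Pdgfb and Vegfa. The members were all probe sets of the array whose platform gene symbol was one of these names. There were 12 probe sets for 9 genes, of 22626 probe sets for 12393 named genes in all, and Rspo3 was not analysed here. Hgf, Pdgfb and Vegfa had 2 probe sets each and the other 6 genes had 1.

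Livers were taken from C57BL/6N mice, all male and aged 12 weeks, with no genetic change given. The 12 Affymetrix arrays formed 4 groups of 3: mesenchymal cells of mice given phenobarbital, mesenchymal cells of mice given tap water as vehicle, hepatocytes of mice given phenobarbital, and hepatocytes of mice given vehicle. The dose was 50 mg/kg body weight in drinking water over 14 days, and the design asked how the drug acted on the separate liver fractions. Phenobarbital is a barbiturate that switches on drug metabolism in hepatocytes through the nuclear receptor CAR. The labels do not say how many animals stood behind an array, how the fractions were isolated or which cells the mesenchymal fraction was meant to hold, so the p-values below rest on sample-to-sample spread that may be technical.

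In liver, endothelial cells near the central vein release WNT2 and WNT9B, which act through Frizzled and LRP receptors on nearby hepatocytes and set their pericentral gene programme. Sinusoidal endothelial BMP2 and BMP6 act on hepatocyte BMP receptors and SMAD proteins to drive hepcidin, the iron hormone encoded by Hamp. HGF is made by stellate and endothelial cells and binds MET on hepatocytes, a main mitogenic route after liver injury. VEGFA from hepatocytes acts on endothelial VEGF receptors, ANGPT2 modulates the endothelial receptor TIE2, and PDGFB attracts stellate cells and pericytes through PDGFRB.

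Of the 10 genes, 6 had a promoter entry in the RefSeq table of build GRCm38.p6: Wnt2, Wnt9b, Hgf, Met, Bmp6 and Vegfa. The 250 bases before the annotated start are printed for 4 genes that separated the fractions widely, since Wnt2 and Bmp6 were higher in mesenchymal cells and Met and Vegfa lower. The GC box GGGCGG, a binding motif of SP family factors, was searched on both strands and is in capitals wherever either strand held it. The Wnt2 window lies at chr6:18030446-18030695 on the minus strand, the Bmp6 window at chr13:38345466-38345715 on the plus strand, the Met window at chr6:17463707-17463956 on the plus strand and the Vegfa window at chr17:46032378-46032627 on the minus strand. Vegfa and Hgf had 2 entries each, and the start nearest the outer end of the gene was taken. All sequences run 5′ to 3′ along the gene.
Wnt2: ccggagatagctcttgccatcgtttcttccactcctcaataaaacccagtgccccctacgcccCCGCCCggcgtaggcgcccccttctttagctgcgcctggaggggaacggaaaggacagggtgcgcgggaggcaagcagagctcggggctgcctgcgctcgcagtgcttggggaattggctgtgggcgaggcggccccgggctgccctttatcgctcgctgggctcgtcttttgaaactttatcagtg
Bmp6: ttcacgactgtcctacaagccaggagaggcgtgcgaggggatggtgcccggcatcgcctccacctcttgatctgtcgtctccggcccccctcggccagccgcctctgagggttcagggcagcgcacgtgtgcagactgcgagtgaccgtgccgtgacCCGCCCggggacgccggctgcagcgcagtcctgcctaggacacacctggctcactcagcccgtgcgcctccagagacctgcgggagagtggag
Met: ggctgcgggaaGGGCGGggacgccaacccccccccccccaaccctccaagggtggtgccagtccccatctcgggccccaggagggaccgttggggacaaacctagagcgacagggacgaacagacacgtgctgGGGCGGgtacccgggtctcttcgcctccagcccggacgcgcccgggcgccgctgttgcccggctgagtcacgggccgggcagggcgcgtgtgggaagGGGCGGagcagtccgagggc
Vegfa: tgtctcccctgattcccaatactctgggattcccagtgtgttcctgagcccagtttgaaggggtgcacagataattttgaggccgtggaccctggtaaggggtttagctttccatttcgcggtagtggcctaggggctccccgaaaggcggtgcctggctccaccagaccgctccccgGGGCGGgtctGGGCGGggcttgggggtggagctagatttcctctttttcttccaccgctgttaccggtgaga
The Wnt2 and Bmp6 windows held 1 GC box each, the Met window 3 and the Vegfa window 2. Among the other entries the Wnt9b window held 3 and the Hgf window none. A GC box was present in 32.7% of the 32851 promoter windows of the table. Guanine and cytosine made up 63.6% of the Wnt2 window, 68.8% of that of Bmp6, 74% of that of Met and 59.2% of that of Vegfa, against a median of 52.4% over all windows. The Hgf window, at 50.8%, lay below that median. These are descriptions of the letters, and both the genes higher and the genes lower in mesenchymal cells held the motif.

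Expression values are log2 values, on which a difference of 1 is a doubling. Within a group the arrays agreed closely (r from 0.989 to 0.996), and across the 2 fractions r ran from 0.731 to 0.783. The 40th percentile of an array, used below as the filter on low values, lay between 6.64 and 6.68 in mesenchymal arrays and between 6.54 and 6.60 in hepatocyte arrays. The number of arrays limits the precision, and no detection call was used here, so a low value does not show that a transcript was absent. The fraction called mesenchymal carried all 14 sinusoidal endothelial markers above the filter, with list means from 12.33 to 12.80, against 6.30 to 6.85 in hepatocytes. Its 10 measured Kupffer cell markers averaged 13.52 to 13.98 against 5.87 to 6.53 in hepatocytes, and 7 or 8 of its 11 measured stellate and fibroblast markers passed the filter, with means from 7.81 to 8.50 against 5.79 to 6.02. All 14 hepatocyte markers lay above the filter in each mesenchymal array too, with means from 9.65 to 11.50 against 14.10 to 14.19 in hepatocytes. The label is thus not borne out as stellate cells or fibroblasts alone, and the cell type behind a mesenchymal value was not tested. Vehicle array 1 of both fractions stood apart in clock genes: Dbp, a clock output gene, read 6.52 in that mesenchymal array and 6.21 in that hepatocyte array, and between 11.60 and 12.15 in the others.

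Wnt2, the endothelial Wnt ligand, was higher in mesenchymal cells than in hepatocytes. Wnt2 read 10.27, 10.16 and 11.32 in mesenchymal cells of phenobarbital mice and 10.66, 11.02 and 11.43 in those of vehicle mice. In hepatocytes it read 5.78, 5.89 and 6.12 under phenobarbital and 5.30, 6.09 and 6.13 under vehicle. Every mesenchymal array lay far above every hepatocyte array, and the hepatocyte values were below the filter. The difference between mesenchymal cells and hepatocytes was 4.66 in phenobarbital mice (SE 0.31, adjusted p = 5.11e-08) and 5.20 in vehicle mice (SE 0.31, adjusted p = 1.93e-08). Where one fraction read below the filter, as for Wnt2 in hepatocytes, its values were not shown to lie above background. The difference is then one of array readings and is given without a fold. Every tested member entered the fit through the fraction in which it read high, which fixed its direction. The p-values of member differences between the fractions, here and below, are therefore descriptions and not support. In these bulk samples, fewer cells of a type and less RNA per cell cannot be told apart.

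Wnt9b, the companion central vein ligand, showed no such pattern. Its probe set read 5.36, 5.31 and 5.63 in mesenchymal cells under phenobarbital and 5.78, 5.63 and 5.36 under vehicle. Hepatocytes read 6.24, 6.00 and 6.15 under phenobarbital and 5.93, 6.31 and 6.02 under vehicle. All 12 values were below the filter, so Wnt9b was not tested, and the mesenchymal values were the lower ones by 0.70 in phenobarbital mice and 0.50 in vehicle mice. With no filter on low values the adjusted p was 0.000676 in phenobarbital mice and 0.00675 in vehicle mice. Whether Wnt9b transcript was present at all cannot be read from values this low.

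Bmp2, a BMP ligand of sinusoidal endothelium, was also higher in mesenchymal cells. It read 12.80, 12.83 and 12.98 in mesenchymal cells of phenobarbital mice and 12.59, 13.24 and 13.13 in those of vehicle mice. Hepatocytes read 5.60, 5.40 and 5.60 under phenobarbital and 5.58, 5.57 and 5.71 under vehicle. The fractions did not overlap, and the hepatocyte values were below the filter. Mesenchymal cells exceeded hepatocytes by 7.34 in phenobarbital mice (SE 0.14, adjusted p = 3.91e-12) and by 7.37 in vehicle mice (SE 0.14, adjusted p = 4.09e-12).

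Bmp6, the ligand tied most closely to iron sensing, spread more widely. It read 10.20, 9.71 and 10.26 in mesenchymal cells of phenobarbital mice and 9.12, 10.39 and 10.92 in those of vehicle mice. Hepatocytes read 5.87, 5.28 and 6.20 under phenobarbital and 5.81, 5.40 and 6.34 under vehicle. The lowest mesenchymal value was that of vehicle array 1, and it still lay above every hepatocyte value. The difference was 4.27 in phenobarbital mice (SE 0.41, adjusted p = 1.19e-06) and 4.29 in vehicle mice (SE 0.41, adjusted p = 1.16e-06). Without array 1 of both vehicle groups, an alternative chosen after seeing the data, the vehicle difference was 4.78 (SE 0.36) for Bmp6, 7.54 for Bmp2 and 5.12 for Wnt2.

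Hgf and Met, a ligand and its receptor, lay on opposite sides. The Hgf probe set 1425379_at read 7.64, 8.08 and 8.01 in mesenchymal cells under phenobarbital and 8.20, 7.95 and 8.05 under vehicle. In hepatocytes that probe set read 6.15, 5.94 and 5.81 under phenobarbital and 6.17, 6.26 and 6.09 under vehicle. The mesenchymal arrays were all higher, and no hepatocyte array reached the filter. This Hgf probe set differed by 1.94 in phenobarbital mice (SE 0.13, adjusted p = 5.84e-08) and by 1.89 in vehicle mice (SE 0.13, adjusted p = 7.23e-08). The other Hgf probe set, 1451866_a_at, read 7.06, 7.54 and 7.82 in mesenchymal cells under phenobarbital and 7.59, 7.84 and 7.78 under vehicle. Hepatocytes read 4.76, 6.04 and 5.92 on it under phenobarbital and 5.33, 5.33 and 5.38 under vehicle. Both Hgf probe sets separated the fractions in the same direction. For 1451866_a_at the difference was 1.90 in phenobarbital mice (adjusted p = 6.86e-05) and 2.39 in vehicle mice (adjusted p = 9.98e-06).

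Met, the receptor tyrosine kinase for HGF, read 5.59, 5.16 and 5.41 in mesenchymal cells under phenobarbital and 5.36, 5.33 and 5.23 under vehicle. Hepatocytes read 7.82, 8.13 and 8.41 under phenobarbital and 7.97, 7.86 and 7.87 under vehicle. The receptor was thus above the filter in all hepatocyte arrays and below it in all mesenchymal arrays. In phenobarbital mice the log2 difference was −2.73 (SE 0.15, adjusted p = 8.03e-09). In vehicle mice the log2 difference was −2.59 (SE 0.15, adjusted p = 1.26e-08).

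Vegfa, the endothelial mitogen, was lower in mesenchymal cells than in hepatocytes, as Met was. Its probe set 1420909_at read 6.66, 5.80 and 5.72 in mesenchymal cells under phenobarbital and 6.31, 6.48 and 5.99 under vehicle. Hepatocytes read 9.64, 9.62 and 9.74 under phenobarbital and 9.49, 9.92 and 9.63 under vehicle. The hepatocyte arrays were tightly grouped and far above the mesenchymal ones. The differences were −3.61 in phenobarbital mice (SE 0.22, adjusted p = 2.3e-08) and −3.42 in vehicle mice (SE 0.22, adjusted p = 3.6e-08). Vegfa probe set 1451959_a_at differed by −2.34 in phenobarbital mice (adjusted p = 4.26e-07) and by −2.74 in vehicle mice (adjusted p = 1.02e-07).

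Angpt2 and Pdgfb, ligands of vascular and mural cell receptors, were higher in mesenchymal cells too. Angpt2 read 7.83, 7.54 and 7.62 in mesenchymal cells under phenobarbital and 6.98, 7.22 and 7.85 under vehicle. In hepatocytes Angpt2 read 6.56, 6.26 and 6.62 under phenobarbital and 6.06, 6.53 and 5.94 under vehicle. The fractions did not overlap, although the gap between the nearest arrays was small. Mesenchymal cells exceeded hepatocytes by 1.18 in phenobarbital mice (SE 0.22, adjusted p = 0.000308) and by 1.17 in vehicle mice (SE 0.22, adjusted p = 0.000334).

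Pdgfb probe set 1450414_at read 7.96, 8.58 and 7.82 in mesenchymal cells under phenobarbital and 9.15, 8.57 and 7.60 under vehicle. In hepatocytes it read 6.29, 5.68 and 6.00 under phenobarbital and 5.95, 6.31 and 6.38 under vehicle. The mesenchymal vehicle arrays ranged most widely, and all mesenchymal values lay above all hepatocyte values. The difference was 2.13 in phenobarbital mice (SE 0.34, adjusted p = 9.44e-05) and 2.23 in vehicle mice (SE 0.34, adjusted p = 6.75e-05). The second Pdgfb probe set, 1450413_at, differed by 0.88 in phenobarbital mice (adjusted p = 0.00112) and by 1.04 in vehicle mice (adjusted p = 0.000308). Its mesenchymal values ran from 6.74 to 7.31, just above the filter.

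**Figure D1:**
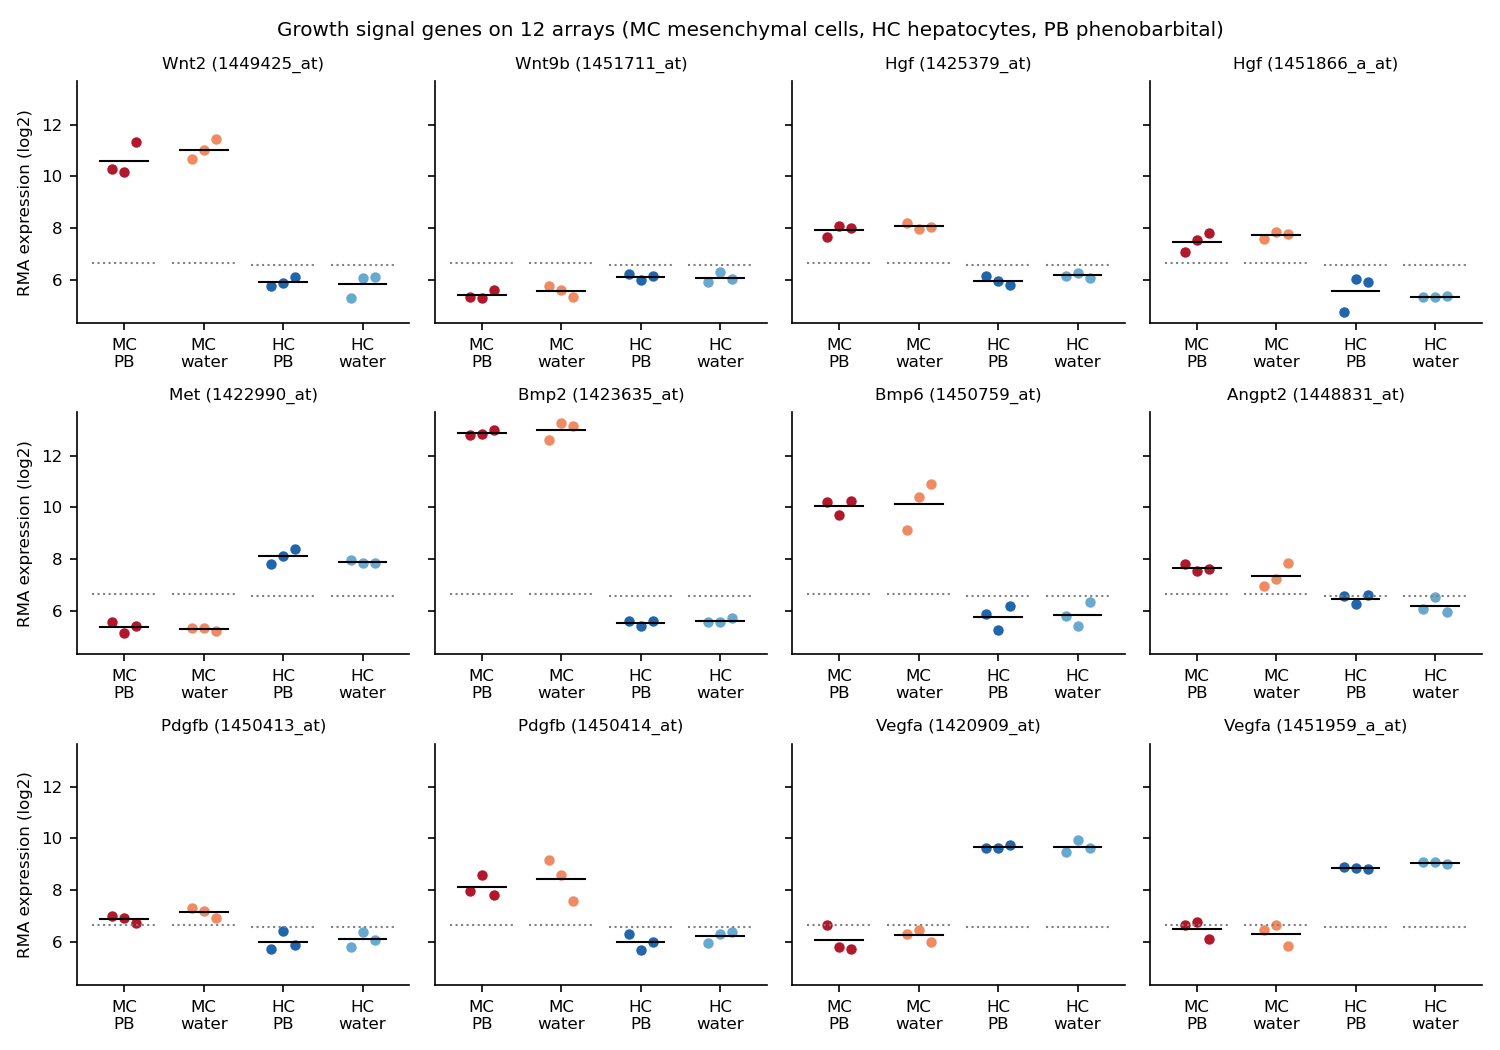
RMA log2 expression of the 12 probe sets in the 4 groups of 3 arrays (points), with the group mean (black line) and the mean of the arrays' 40th percentiles (dotted line). Wnt2, Bmp2 and Bmp6 sit far above the dotted line in mesenchymal cells, Met and Vegfa in hepatocytes, and Wnt9b lies below it in every group.

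Of the 11 probe sets that passed the filter, 8 were higher and 3 lower in mesenchymal cells in phenobarbital mice, where 82.5% of 15432 tested probe sets passed in either direction (43.4% higher and 39.2% lower). The counts of members were the same in vehicle mice, where 82.2% of all tested probe sets passed (43.2% higher and 38.9% lower). The split over all probe sets turned round when array medians were made equal, with 5644 higher and 7201 lower in phenobarbital mice and 5630 higher and 7161 lower in vehicle mice, against 6691 and 6045, and 6670 and 6010, on the values as deposited. All 11 tested probe sets passed the filter through the fraction in which they were high and so had to differ. In the other fraction at most 1 array read above the filter, for Angpt2 and Vegfa 1451959_a_at. For this reason, and because the fractions differed at most probe sets of the array, these counts are not support for the list. In size the tested differences of readings ran from 0.88 (Pdgfb 1450413_at) to 7.34 (Bmp2) in phenobarbital mice and from 1.04 to 7.37 for the same probe sets in vehicle mice, sign aside, beside a median absolute difference over all tested probe sets of 0.81 in phenobarbital mice and 0.80 in vehicle mice. The signs of the tested members held under another scaling, which moved the median of all tested probe sets from 0.06 to −0.15 in vehicle mice when array medians were made equal.

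**Figure D2:**
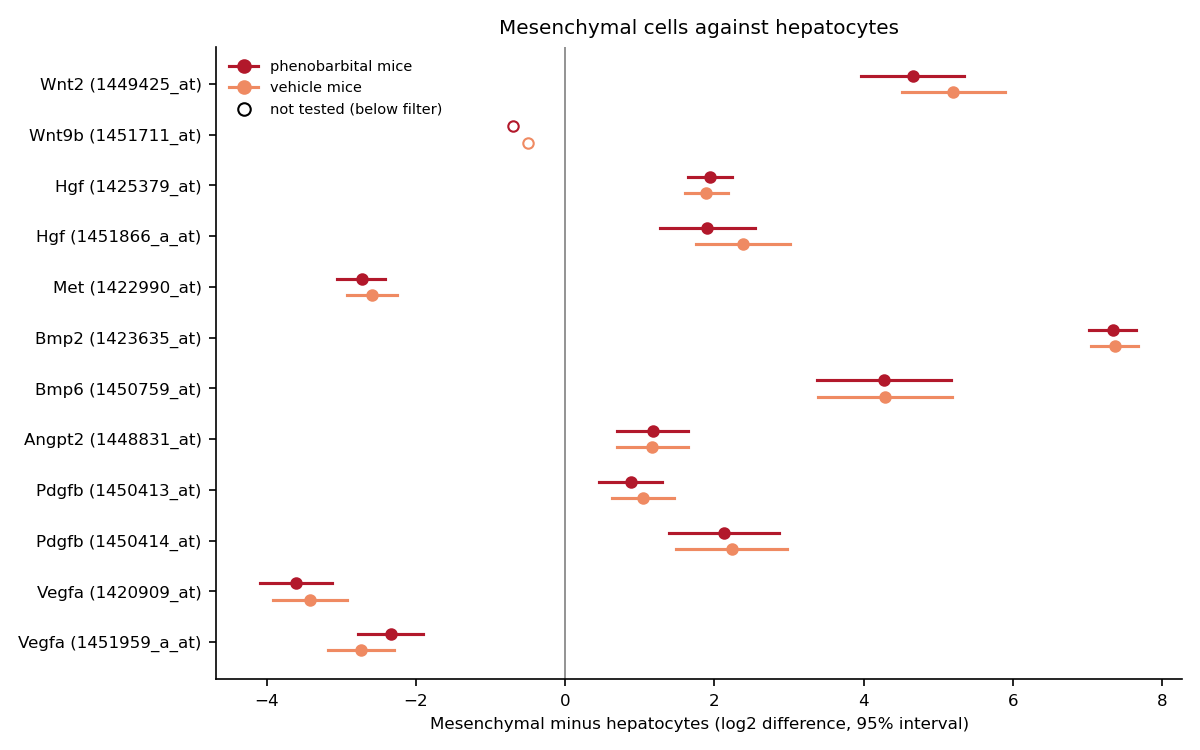
Difference between mesenchymal cells and hepatocytes for the 12 probe sets (log2, x axis) in phenobarbital mice and vehicle mice, with 95% intervals from the fit of all 12 arrays. The values in both treatments lie close together, from −3.61 for Vegfa to 7.37 for Bmp2, and Wnt9b, drawn open, was not tested.

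The receptors and activators around these ligands were described by lists of other genes in their pathways. As for the members, a gene that passed the filter through only 1 fraction was bound to read higher there, so the counts are descriptions. Over all tested probe sets of vehicle mice 43.2% were higher in mesenchymal cells and 38.9% lower. Among VEGF ligands and receptors other than Vegfa, 6 of 8 tested genes were higher in mesenchymal cells of vehicle mice and 1 lower, with a list median of 2.79 against 0.06 over all tested probe sets. Flt4, Kdr, Flt1 and Nrp1, which encode receptors and a co-receptor of endothelial cells, differed by 6.30, 5.80, 4.68 and 3.59. All 3 tested angiopoietin and TIE genes were higher, namely Tek, which encodes TIE2, by 7.21, the phosphatase gene Ptprb by 6.81 and Tie1 by 5.11. In hepatocytes at most 1 of the 5 genes of that list read above the filter in an array. The 3 tested genes thus entered through mesenchymal cells, and their direction was fixed by the filter. Of 3 tested PDGF genes, Pdgfd and Pdgfc were higher by 3.87 and 3.00 and Pdgfa lower at −0.72. Vegfa was thus high in the fraction opposite to its receptor genes Kdr and Flt1. The co-receptor gene Nrp1 read from 9.54 to 10.47 in hepatocytes, so it was well above the filter in both fractions.

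The HGF activation list ran the other way, with 3 of 11 tested genes higher and 6 lower, and a median of −0.77. Hgfac, whose product activates pro-HGF, differed by −5.42 (SE 0.33), Hpn, the protease hepsin, by −4.12, Plg, plasminogen, by −4.48 and Mst1, the HGF-related ligand of the RON receptor, by −5.65. The HGF ligand gene was higher in one fraction while its receptor gene and the protease genes Hgfac and Hpn were higher in the other. The 3 list genes that were higher in mesenchymal cells are not named here, so this does not cover every activator.

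For Wnt, 4 of 9 tested receptor genes were higher and 3 lower (median 0.14), with Fzd4 at 1.60 and Fzd2 at −1.23. Of 7 other tested Wnt and R-spondin genes 1 was higher and 4 lower. The gene that was higher was Wls, the carrier that Wnt ligands need for secretion, which read 10.02, 10.03 and 10.13 in mesenchymal cells under phenobarbital and 9.81, 10.12 and 10.05 under vehicle. Hepatocytes read 5.81, 5.58 and 5.84 for Wls under phenobarbital and 5.82, 5.48 and 5.75 under vehicle, far below every mesenchymal array. Wls differed by 4.32 in phenobarbital mice (adjusted p = 3.76e-11) and by 4.31 in vehicle mice (adjusted p = 3.82e-11). Of 5 tested secreted Wnt inhibitors 4 were lower and 1 higher. The higher one was the Dickkopf family gene Dkk3, named after its values were seen, at 0.75 in phenobarbital mice (adjusted p = 0.0396) and 0.98 in vehicle mice (adjusted p = 0.0111). In phenobarbital mice Dkk3 did not pass with array medians made equal (0.52), nor without hepatocyte phenobarbital array 3 (0.53), mesenchymal phenobarbital array 1 (0.72) or 3 (0.60), or mesenchymal vehicle array 2 (0.75), with adjusted p up to 0.158. In vehicle mice Dkk3 did not pass without mesenchymal vehicle array 3 (0.65, adjusted p = 0.0509). Counting every alternative, Dkk3 did not pass or was not tested in 7 of 21 in phenobarbital mice and 3 of 22 in vehicle mice. Notum, an esterase that inactivates Wnt and is itself a Wnt target, differed by −0.97 in phenobarbital mice and −1.69 in vehicle mice. Among hepatocyte Wnt target genes 6 of 9 tested were lower and 2 higher in vehicle mice (median −1.34), with Cyp1a2 at −5.11 and Rgn at −5.06.

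In the BMP pathway 8 of 13 tested receptor and partner genes were higher and 5 lower in vehicle mice, with endoglin (Eng) at 4.17, Acvrl1 at 3.17 and Tfr2, a hepatocyte iron sensor, at −4.47. Of 9 tested BMP target genes 5 were higher and 3 lower in phenobarbital mice, and 6 were higher and 3 lower in vehicle mice. The gene that differed between these counts was Id2, at 0.46 in phenobarbital mice (adjusted p = 0.175) and 1.03 in vehicle mice (adjusted p = 0.0081). In vehicle mice Smad6, a BMP feedback inhibitor, differed by 4.47 and Id3 by 3.99, whereas Hamp differed by −5.53 (SE 0.47, adjusted p = 3.82e-07) and Hamp2 by −4.60. The third lower target was Atoh8, a transcription factor gene, at −1.15 (adjusted p = 0.000438). Id2 and Atoh8 were named after their values were seen. Of 8 tested genes on the list of other BMP ligands and antagonists, 2 were higher and 6 lower, with Bmp1 at −2.75 and Fst at −2.43. Bmp1 is on that list by name and encodes a protease, not a BMP ligand. Hepcidin RNA was therefore high in the fraction opposite to Bmp2 and Bmp6 RNA. Hepatocyte markers were above the filter in every mesenchymal array, and their part in these lower hepatocyte genes was not tested.

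**Figure D3:**
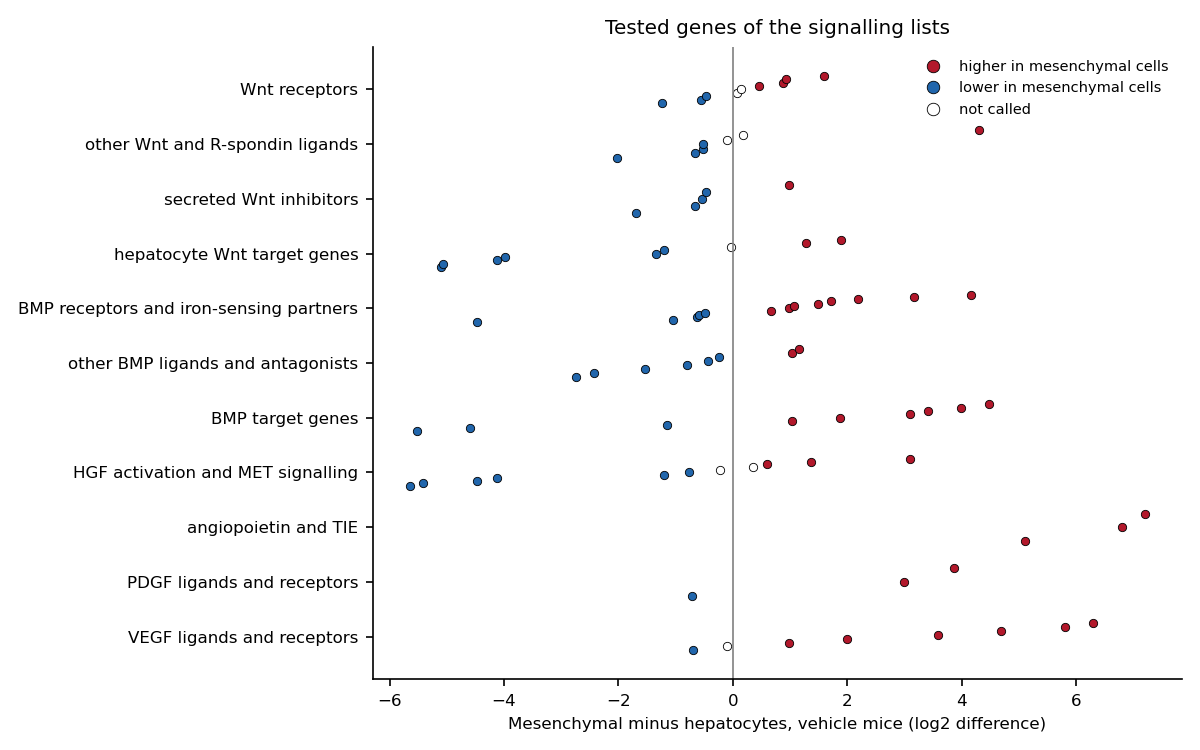
Difference between mesenchymal cells and hepatocytes in vehicle mice for the tested genes of 11 pathway lists (log2, x axis), 1 point a gene, red where higher and blue where lower in mesenchymal cells at an adjusted p under 0.05. VEGF, angiopoietin and PDGF genes lie mostly to the right, up to 7.21 for Tek, and HGF activation and Wnt target genes mostly to the left, down to −5.65 for Mst1.

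For phenobarbital in hepatocytes none of the 3 tested member probe sets passed, 8 of 13705 probe sets passed in all (0.0584%), and the groups did not overlap for 14.8%. Without phenobarbital array 1 the count over all probe sets was 1, without phenobarbital array 2 it was 2 and without vehicle array 2 it was 4. The drug response itself was present: Cyp2b10, the classical CAR target, read 13.06, 14.15 and 12.87 in phenobarbital hepatocytes against 7.80, 8.01 and 7.72 in vehicle hepatocytes. Met differed by 0.22 (95% interval −0.12 to 0.57, adjusted p = 0.716). Vegfa 1420909_at differed by −0.01 (−0.29 to 0.26). Vegfa 1451959_a_at read 8.90, 8.87 and 8.82 in phenobarbital hepatocytes against 9.09, 9.10 and 9.0 in vehicle hepatocytes and did not overlap, as 1 of 3 tested members, but its difference of −0.20 (SE 0.08, interval −0.38 to −0.02) had an adjusted p of 0.606. The other 9 probe sets were below the filter in hepatocytes.

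In mesenchymal cells 8 member probe sets were tested and none passed, among 13642 tested of which 0 passed in limma (0%). At an unadjusted p under 0.05 there were 404, and the groups did not overlap for 7.65% of all tested probe sets and for none of the members. The widest member difference was that of Wnt2, −0.45 (interval −1.26 to 0.35, adjusted p = 0.999), for which the arrays of the 2 groups overlapped. Leaving out 1 array moved the Wnt2 value to between −0.82, without phenobarbital array 3, and −0.24, without phenobarbital array 2. Angpt2 differed by 0.31 (−0.21 to 0.84), Bmp6 by −0.09 (−1.13 to 0.96), Bmp2 by −0.12 (−0.51 to 0.28) and Hgf 1425379_at by −0.16 (−0.48 to 0.16). Pdgfb 1450414_at differed by −0.32 (−1.27 to 0.63) and Pdgfb 1450413_at by −0.26 (−0.57 to 0.04). The intervals of Bmp6, Wnt2 and Pdgfb 1450414_at include −1, so a halving of these was not excluded.

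The phenobarbital effect in hepatocytes minus that in mesenchymal cells was tested for 11 member probe sets and passed for none, as for all 15432 probe sets (0%, with 772 at an unadjusted p under 0.05). Over all probe sets, 1 passed without hepatocyte phenobarbital array 3 and 3 passed without mesenchymal phenobarbital array 1. Member values ran from −0.40 (interval −1.02 to 0.22) for Vegfa 1451959_a_at to 0.54 (−0.44 to 1.52) for Wnt2, which ran from 0.27 to 0.91 when 1 array was left out. For all 12 probe sets the 2 group means of one fraction lay above those of the other, and the phenobarbital and vehicle arrays within a fraction overlapped except for Vegfa 1451959_a_at in hepatocytes.

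**Figure D4:**
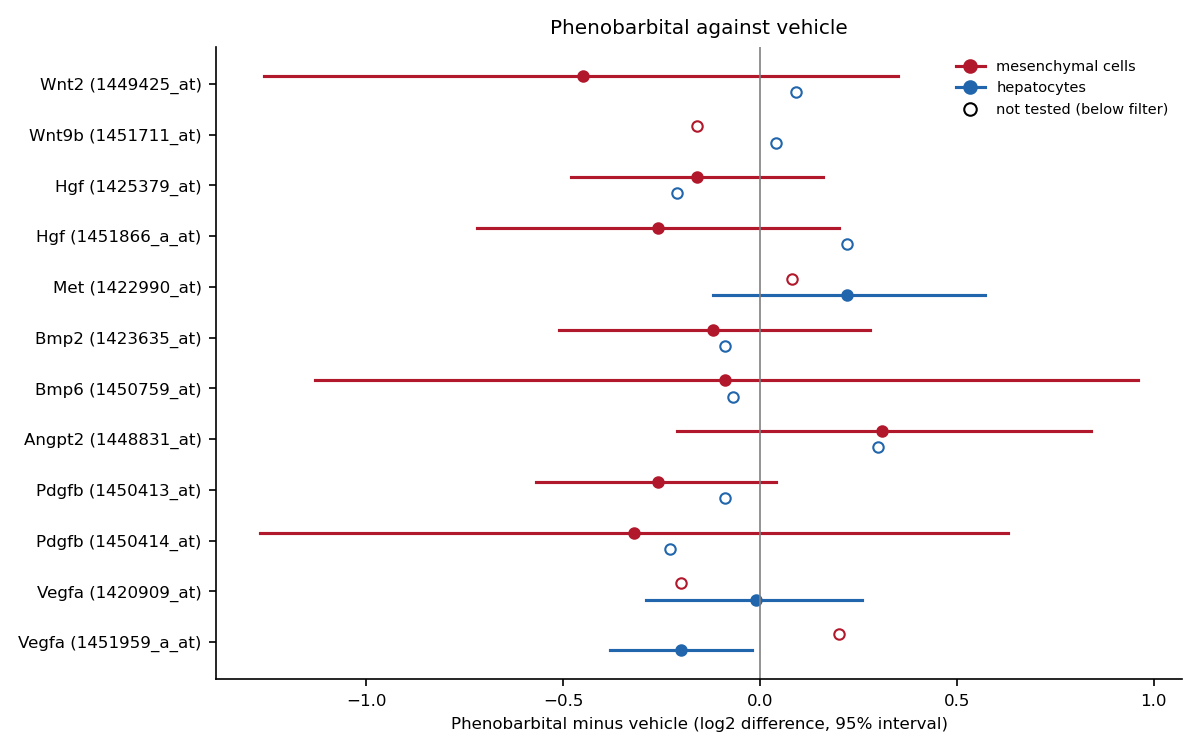
Phenobarbital minus vehicle (log2, x axis) for the 12 probe sets in mesenchymal cells and hepatocytes, with 95% intervals where tested and open symbols where a probe set was below the filter. All tested intervals but that of Vegfa 1451959_a_at in hepatocytes (−0.38 to −0.02) include 0.

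No pathway list had a member that passed for phenobarbital in either fraction. All 8 tested hepatocyte Wnt target genes had negative differences in hepatocytes (median −0.26, against −0.00 over all tested probe sets). The widest were Oat, ornithine aminotransferase, at −1.42 (adjusted p = 0.485) and Slc1a2 at −1.10 (adjusted p = 0.463). Oat read 9.71, 11.26 and 10.78 in phenobarbital hepatocytes against 11.41, 12.13 and 12.48 in vehicle hepatocytes. Slc1a2 read 6.67, 5.94 and 7.16 against 7.49, 7.57 and 8.01. For both, the groups did not overlap, as for 14.8% of all tested probe sets, and neither passed. The mean of the 15 measured list genes was 7.91, 8.26 and 8.35 in phenobarbital arrays against 8.40, 8.44 and 8.65 in vehicle arrays. Phenobarbital array 1 was lowest, also for Cyp1a2 (10.64, against 12.03 and 11.73) and Lect2 (9.12, against 10.98 and 10.63). In the other phenobarbital arrays neither gene lay below its vehicle values (11.39 to 11.87 and 10.14 to 10.80). Both genes were named after their values were seen. The Wnt inhibitor Notum read 7.71, 7.90 and 7.88 in phenobarbital hepatocytes against 8.35, 8.46 and 8.84 in vehicle hepatocytes, a difference of −0.72 (SE 0.14, adjusted p = 0.257). Its groups did not overlap, but the value did not pass the test. In the BMP target list 6 of 7 tested genes had positive differences in hepatocytes (median 0.56). Hamp2 read 13.07, 12.85 and 11.97 in phenobarbital hepatocytes against 11.35, 11.80 and 12.06 in vehicle hepatocytes (difference 0.90, SE 0.29, adjusted p = 0.524), with overlapping groups, and its probe set may take signal from the near-identical Hamp. Id1, a direct BMP target, differed by 1.03 (SE 0.41, adjusted p = 0.612), and its lowest value, 6.49, was that of vehicle array 1. The Id1 difference was 0.59 without that array and ran up to 1.47 when another was left out.

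In mesenchymal cells Hamp read 10.54, 9.47 and 8.58 under phenobarbital against 7.21, 8.63 and 8.86 under vehicle, a difference of 1.30 (SE 0.59, adjusted p = 0.999) that ran from 0.78 to 1.77 when 1 array was left out. The hepatocyte marker list moved alongside, at 11.50, 10.38 and 10.13 in phenobarbital arrays against 9.65, 10.74 and 10.55 in vehicle arrays, with 13 of 14 markers positive and none passing. Phenobarbital array 1 was highest and vehicle array 1 lowest for both, and the part of hepatocyte RNA in the Hamp values was not tested.

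Members varied unequally within groups of mesenchymal arrays. The pooled within-group SD was 0.69 for Bmp6, 0.62 for Pdgfb 1450414_at and 0.53 for Wnt2, at percentiles 98.7, 98.2 and 97.3 of the 13642 tested probe sets, against 0.25 for Bmp2 and 0.19 for Hgf 1425379_at. The median SD of tested probe sets was 0.13. Vehicle array 1 held the lowest Bmp6 and Bmp2 values of the mesenchymal arrays and the highest value of Pdgfb 1450414_at. In the same array the endothelial (12.33), stellate (7.81) and hepatocyte (9.65) list means were lowest. The platelet list mean was highest there, at 6.91 against 6.65 to 6.79 in the other mesenchymal arrays, with 2 of 6 markers above the filter. The T and NK cell (8.81) and B cell (7.12) list means were highest there too. Neutrophil marker means ranged from 7.50 in phenobarbital array 1 to 10.47 in phenobarbital array 2. These 2 arrays held the lowest Wnt2 values, 10.27 in phenobarbital array 1 and 10.16 in phenobarbital array 2. The part of cell makeup in the member values was not tested.

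**Figure D5:**
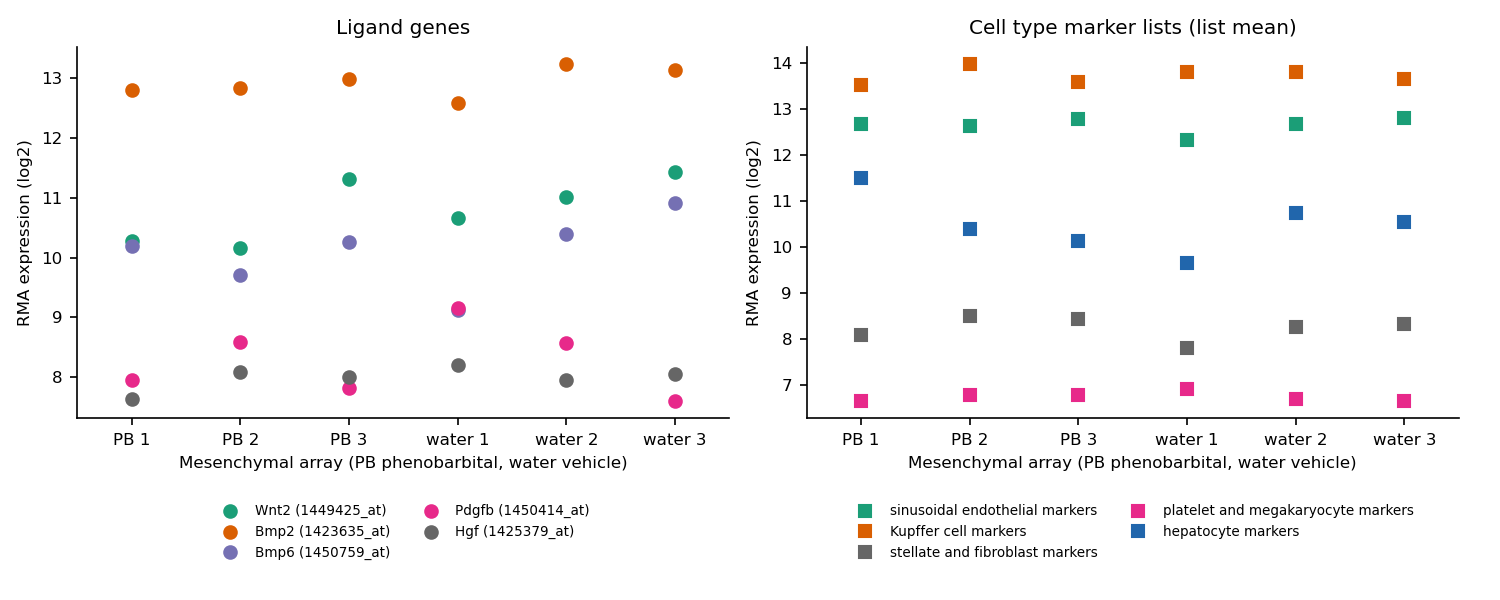
RMA log2 expression on the 6 mesenchymal arrays of 5 ligand probe sets (left) and mean log2 level of 5 cell type marker lists (right), phenobarbital arrays left of vehicle arrays. Bmp6 (9.12) and the endothelial list (12.33) are lowest in vehicle array 1, where Pdgfb (9.15) is highest, and the hepatocyte list is highest in phenobarbital array 1 (11.50).

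The genes whose values ran most like each member were taken by Pearson correlation over the 12 arrays. Because the points fall into the 2 fractions, many genes correlate closely, and the values are a description without a test. For Bmp2 the nearest genes were Ptprb, Slc25a36 and Stab2, the last a scavenger receptor of sinusoidal endothelium, and 2476 of 12392 genes had r over 0.95. Wnt2 ran closest to Nfkbia, Dctn1 and Zswim6 (r = 0.997, 0.995 and 0.995, with 2181 genes over 0.95). Bmp6 ran closest to Ctdspl, Mlxip and Vamp5, Hgf to Tcirg1, Vps35l and Capzb, and Pdgfb to Wdr26, Zdhhc14 and Plod3. Met ran closest to Ndufa4, Ndufa5 and Timd2 and Vegfa to C77080, Tob1 and Masp2. Angpt2 ran closest to Bcl2l2 (r = 0.980), with Rab13 and Gypc next and 16 genes over 0.95. Wnt9b ran closest to Slc5a5, Htr1b and Vpreb3, with 8 genes over 0.95.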

How the data were processed

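Samples were labelled with a 3′ amplification kit and each was read on its own Affymetrix array, according to the labels. RMA produced the deposited log2 values, per the submitters' processing notes. It corrects background, equalises array distributions and summarises probes, so differences are relative to the bulk of probe sets. Software, version and scan dates: not given in the sources used here. No batch could be examined. The platform annotation named the probe sets (20380 with 1 symbol, 691 with several, 1555 with none), and 20351 of the first matched RefSeq.

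Linear models were fitted in limma 3.58.1 (R 4.3.3) with lmFit, then eBayes (intensity trend). A probe set entered a fit where at least 3 of its arrays put it over their 40th percentile, and it passed where the p adjusted by Benjamini-Hochberg over all probe sets was under 0.05. Comparisons of the fractions and the difference of effects used all 12 arrays, and phenobarbital comparisons the 6 arrays of their fraction. The fits were tested on simulated data. Every member was named. Each pathway list allowed up to 4 passing genes to be named for a comparison, or where nothing passed the 2 widest, and a gene stood by its probe set of highest mean. The members and lists were chosen with earlier results of these data known. Clock genes, Cyp2b10 and the Hamp and Notum array values were chosen after their values were seen.

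Whether replicate numbers paired samples was checked by correlating deviations from group means. Mesenchymal and hepatocyte arrays of the same number in vehicle mice correlated at 0.192, 0.159 and 0.148, each highest with its own number, and those of phenobarbital mice at 0.0528, −0.0232 and 0.0103. The numbers were therefore taken to pair the fractions of vehicle mice. Alternatives changed the filter, scaling, probe set rule, variance model, block and arrays.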

Additional observations from a re-analysis of the deposited data

Results flagged for a closer look

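Twsg1, which encodes a secreted BMP-binding protein, was the only gene of those searched whose arrays all lay on opposite sides of vehicle in the 2 populations. The search covered the members and a selection of list genes, not the whole lists. Over all tested probe sets the groups did not overlap, in either direction, for 14.8% in hepatocytes and 7.65% in mesenchymal cells. The share on opposite sides in the 2 populations was not counted. In hepatocytes Twsg1 read 9.50, 9.54 and 9.47 under phenobarbital, against 9.67, 9.64 and 9.64 under vehicle, a difference of −0.15 ± 0.07 (SE) on the log2 scale. In mesenchymal cells Twsg1 read 8.39, 8.24 and 8.23 under phenobarbital, against 8.02, 8.14 and 8.19 under vehicle, a difference of 0.17 ± 0.09 (SE). The difference between these effects, hepatocytes minus mesenchymal cells, was −0.32 ± 0.11 (SE) for Twsg1 and did not pass limma's test over all probe sets (adjusted p = 0.958). Neither effect of Twsg1 passed on its own, with limma adjusted p = 0.643 in hepatocytes and 0.999 in mesenchymal cells, and the gene was picked for this pattern from many probe sets.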

How the results depend on the processing

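The 11 tested members kept direction and passed between the fractions in both treatments under every alternative that tested them. With the filter at the 60th percentile only 7 members were tested and passed in each treatment, by construction. With no filter all 12 passed, Wnt9b included, beside 77.8% of all 22626 probe sets in phenobarbital mice (7355 higher and 10243 lower) and 75.7% in vehicle mice (7375 higher and 9761 lower). With replicate number as a block 11 members passed in both treatments, none for phenobarbital or the difference of effects, and no named call changed. The smallest member adjusted p between the fractions was weaker with the block. In limma it was 1.8e-08 against 3.91e-12 in phenobarbital mice and 1.83e-08 against 4.09e-12 in vehicle mice. That block paired same-numbered arrays of the fractions in both treatments. In the phenobarbital comparisons it paired same-numbered phenobarbital and vehicle arrays. Of these pairings only that of the fractions in vehicle mice was taken from the correlations. Leaving out 1 array left the number of members that passed at 11 between the fractions and at 0 elsewhere. Over all features the count fell with the number tested while the share stayed similar. In phenobarbital mice 12736 of 15432 passed (82.5%), against 7503 of 9031 (83.1%) with 1 probe set per gene and 7115 of 8544 (83.3%) with their mean. In vehicle mice 12680 of 15432 passed (82.2%), against 7470 (82.7%) and 7113 (83.3%). For phenobarbital in hepatocytes 8 passed against 4 and 3 under those rules, 5 without the intensity trend and 13 with all 12 arrays. Calls between the fractions were followed for the members and the same selection of list genes, not the whole lists. The 60th percentile filter ended 28 of these calls by leaving the probe set untested. The mean of a gene's probe sets ended 4 (Fzd2 in both treatments among them) and fitting only the 6 arrays compared ended 5, all of list genes. Leaving out 1 array ended 5 and equal array medians 1, all of them calls of Dkk3.

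Among values that did not pass the test, leaving out 1 array turned some signs, and the cause was not tested. For phenobarbital, Vegfa 1420909_at ranged from −0.11 to 0.11 in hepatocytes, and in mesenchymal cells Bmp2 ranged from −0.31 to 0.01, Bmp6 from −0.60 to 0.30 and Pdgfb 1450414_at from −0.74 to 0.04. For the difference of effects the ranges were −0.26 to 0.18 for Angpt2, −0.10 to 0.23 for Bmp2, −0.37 to 0.53 for Bmp6, −0.18 to 0.04 for Hgf 1425379_at, −0.00 to 0.30 for Met, −0.03 to 0.31 for Pdgfb 1450413_at and −0.26 to 0.51 for Pdgfb 1450414_at. That difference was 0.01 for Angpt2 with array medians made equal, and 0.22 for Hgf 1425379_at and −0.11 for Vegfa 1420909_at with the mean of a gene's probe sets. Without array 1 of both vehicle groups it was 0.11 for Angpt2, −0.05 for Pdgfb 1450413_at and −0.40 for Pdgfb 1450414_at. Signal near the filter limits Wnt9b, and 3 arrays a group limit the phenobarbital comparisons.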
